A study of Homo sapiens with 18 samples.

Results

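The glucocorticoid receptor gene NR3C1 and 8 genes known as targets of the receptor (FKBP5, TSC22D3, PER1, KLF9, ZFP36, DUSP1, NFKBIA and ANGPTL4) were described from chromatin peak lists of A549 cells. They were chosen by name and are 9 of 19970 protein-coding genes with a RefSeq position on chromosomes 1 to 22 and X. For each gene, the peaks lying over the gene or within 20 kb to either side, called its window here, were taken from 12 lists.

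A549 is a human lung adenocarcinoma line. It was profiled by CUT&Tag, an assay in which an antibody tethers a transposase to chromatin so that nearby DNA is tagged and sequenced. Antibodies were raised against ARID1A, a subunit of the BAF chromatin remodelling complex, and YTHDF1, a protein known as a reader of N6-methyladenosine in RNA. Each antibody was used in 2 replicates of 3 conditions: wild-type cells (WT), a YTHDF1 knockout (YTHDF1-KO) and a knockdown of ARID1A with siRNA (siARID1A). All 6 groups are the same line in serum-containing medium, and no glucocorticoid is named in the labels. The labels do not say whether the knockout line is 1 clone, whether the WT cells received a control siRNA, or whether replicates were separate cultures. P-values here therefore rest on a spread between samples that may be only technical.

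In the absence of hormone the glucocorticoid receptor is held in the cytoplasm by heat shock protein chaperones. Once it binds cortisol or a synthetic steroid such as dexamethasone it enters the nucleus, binds DNA at glucocorticoid response elements and recruits coregulators, BAF complexes among them. In lung epithelium its targets include brakes on inflammatory signalling, on mRNA stability and on the receptor itself, and A549 is a common model of that response.

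The lists differed in size before any gene was considered, from 40562 to 106882 peaks. A percentile given for a peak is its rank by total signal within its own list, so percentiles of lists of different length show no change in level. The anti-ARID1A lists covered 227.8 to 266.4 Mb in WT, 233.8 to 241.0 Mb in YTHDF1-KO and 99.0 to 127.6 Mb in siARID1A cells. The anti-YTHDF1 lists covered 49.3 to 89.6 Mb, with the extremes being replicate 2 and replicate 1 of WT. The mitochondrial genome took 44.9% to 49.5% of the listed signal in the siARID1A anti-ARID1A lists, against 18.1% to 38.5% in the other 10. Sequencing depth is unknown, and the lists carry no measure of ARID1A or YTHDF1 protein, so neither the knockout nor the knockdown could be checked here. The 2 replicates of a group shared 33.6% to 48.8% of their joint peak length with anti-ARID1A and 16.4% to 22.9% with anti-YTHDF1.

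The 9 windows held 415 peaks in the anti-ARID1A lists and 299 in the anti-YTHDF1 lists. A peak lay within 1 kb of an annotated start in all 12 lists for PER1, ZFP36, DUSP1 and NFKBIA, 4 of the 9 genes. Among all genes 15.9% had this, counting either end of a gene without an annotated start. All 9 genes had a start peak in all 6 anti-ARID1A lists, against 55.0% of all genes. The same 4 of the 9 had one in all 6 anti-YTHDF1 lists, against 16.2%. The start regions of 3 genes show how they differed, each given as the 250 bases upstream of a start (RefSeq, GRCh38.p14), 5′ to 3′ on the gene's strand, with CpG dinucleotides in capitals. The PER1 region (chr17:8152405-8152654, minus strand) and the ZFP36 region (chr19:39406597-39406846, plus strand) were covered over their whole length by peaks of all 12 lists. The region of an inner start of TSC22D3 (chrX:107717063-107717312, minus strand), inside the gene body, was covered whole by peaks of 6 of 6 anti-ARID1A lists and of 0 of 6 anti-YTHDF1 lists. The region of the other inner start (chrX:107716509-107716758), not printed, was covered whole by 4 of 6 and 0 of 6.
PER1: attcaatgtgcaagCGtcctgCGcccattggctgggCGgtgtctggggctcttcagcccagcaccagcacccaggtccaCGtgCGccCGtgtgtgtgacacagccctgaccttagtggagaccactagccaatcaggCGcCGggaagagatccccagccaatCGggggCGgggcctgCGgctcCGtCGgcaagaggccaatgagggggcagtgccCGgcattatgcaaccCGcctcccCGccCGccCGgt
ZFP36: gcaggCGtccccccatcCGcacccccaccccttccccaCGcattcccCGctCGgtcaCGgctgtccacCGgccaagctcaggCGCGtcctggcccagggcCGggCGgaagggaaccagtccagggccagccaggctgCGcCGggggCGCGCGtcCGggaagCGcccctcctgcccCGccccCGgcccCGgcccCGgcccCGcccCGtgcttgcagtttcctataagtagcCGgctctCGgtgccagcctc
TSC22D3: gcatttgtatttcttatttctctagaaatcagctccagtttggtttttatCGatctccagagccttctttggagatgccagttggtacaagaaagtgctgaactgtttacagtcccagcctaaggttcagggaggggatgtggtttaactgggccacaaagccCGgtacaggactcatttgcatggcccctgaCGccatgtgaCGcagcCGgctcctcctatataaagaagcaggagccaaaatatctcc
The PER1 region was 67.2% G or C with 18 CpG dinucleotides, the ZFP36 region 76.4% with 26, and the printed TSC22D3 region 48.0% with 5. The region of the other inner TSC22D3 start was 68.4% with 19. The median over 22131 promoter regions of this length was 62.0% with 16 CpG. All 19 such regions of the 9 genes were searched on both strands for the half-site of the glucocorticoid response element, AGAACA, and for a pair of these half-sites facing each other with 3 bases between them. The half-site, which is part of the pair, was in 0 of the 19 regions and in 9.83% of the 22131. The pair was in 0 of the 22131. The AP-1 motif, searched as TGACTCA on both strands, was in 0 of the 19 and in 3.45% of the 22131. The 19 regions are not independent, since 7 belong to NR3C1. DNA outside these regions was not searched, so response elements elsewhere at these genes would be missed.

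**Figure D1:**
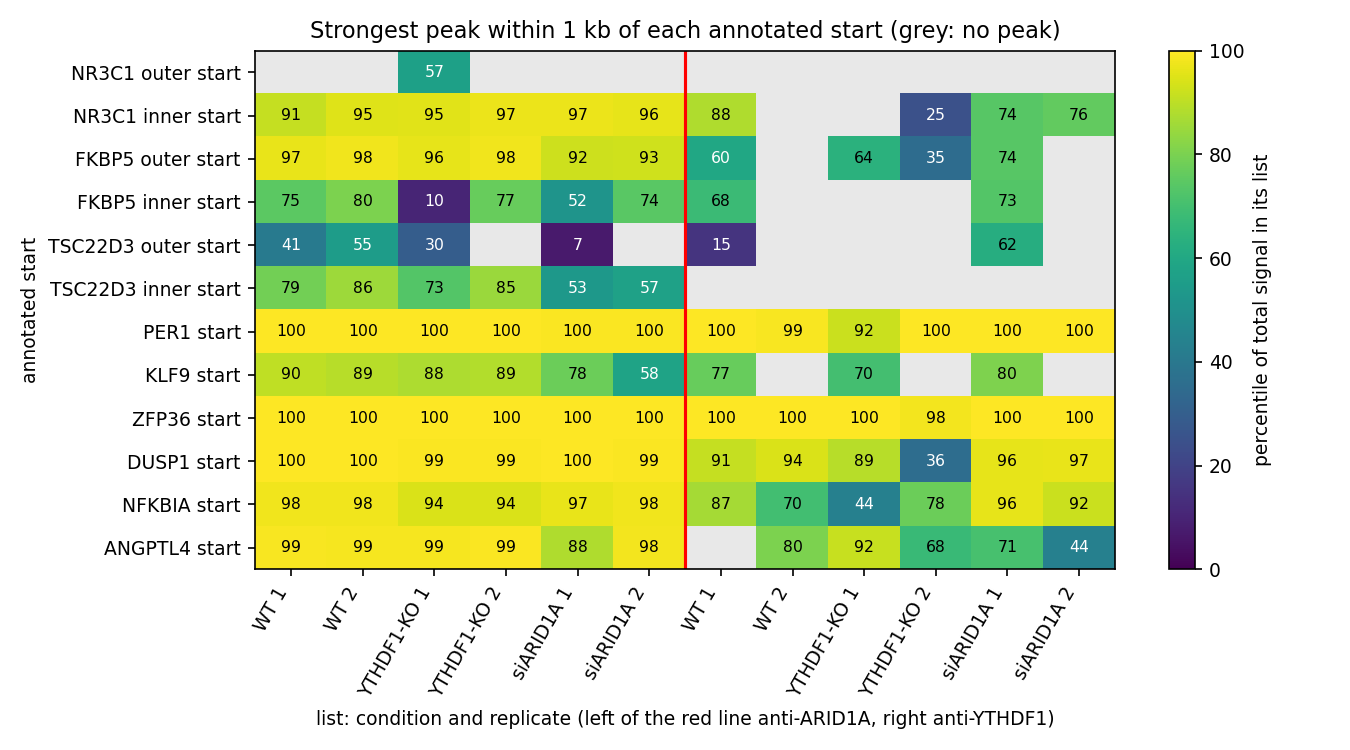
Rows are the annotated starts of the 9 genes (outer and inner where a gene has starts more than 5 kb apart) and columns the 12 lists; colour and number give the percentile of the strongest peak within 1 kb by total signal in its own list, and grey means no peak. PER1 and ZFP36 lie at 92.1 or above in every list, while the inner start of TSC22D3 is filled in the 6 anti-ARID1A lists and empty in the 6 anti-YTHDF1 lists.

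Peaks covered more of all 9 windows with the ARID1A antibody than with the YTHDF1 antibody. The difference passed the test for 9 of 9 genes (limma on log2(covered bp + 500), Benjamini-Hochberg adjusted p under 0.05), where 85.3% of the 17679 windows tested also passed in that direction and 0.43% in the other. The members' median log2 difference was 1.70 and that of all windows 1.45. The larger covered length was thus shared with most genes. Relative to the median window of each library (the centred scale), 2 members passed as higher with anti-ARID1A (NR3C1 by 0.83, adjusted p = 0.0405, and ANGPTL4 by 0.61, adjusted p = 0.0134) and 2 as lower (PER1 at -0.95, adjusted p = 1.6382e-06, and ZFP36 at -1.24, adjusted p = 1.1833e-07). Of all windows 7.87% were higher and 22.0% lower. ZFP36 cannot rise further, since 3 anti-ARID1A lists covered its whole 42.6 kb window.

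**Figure D2:**
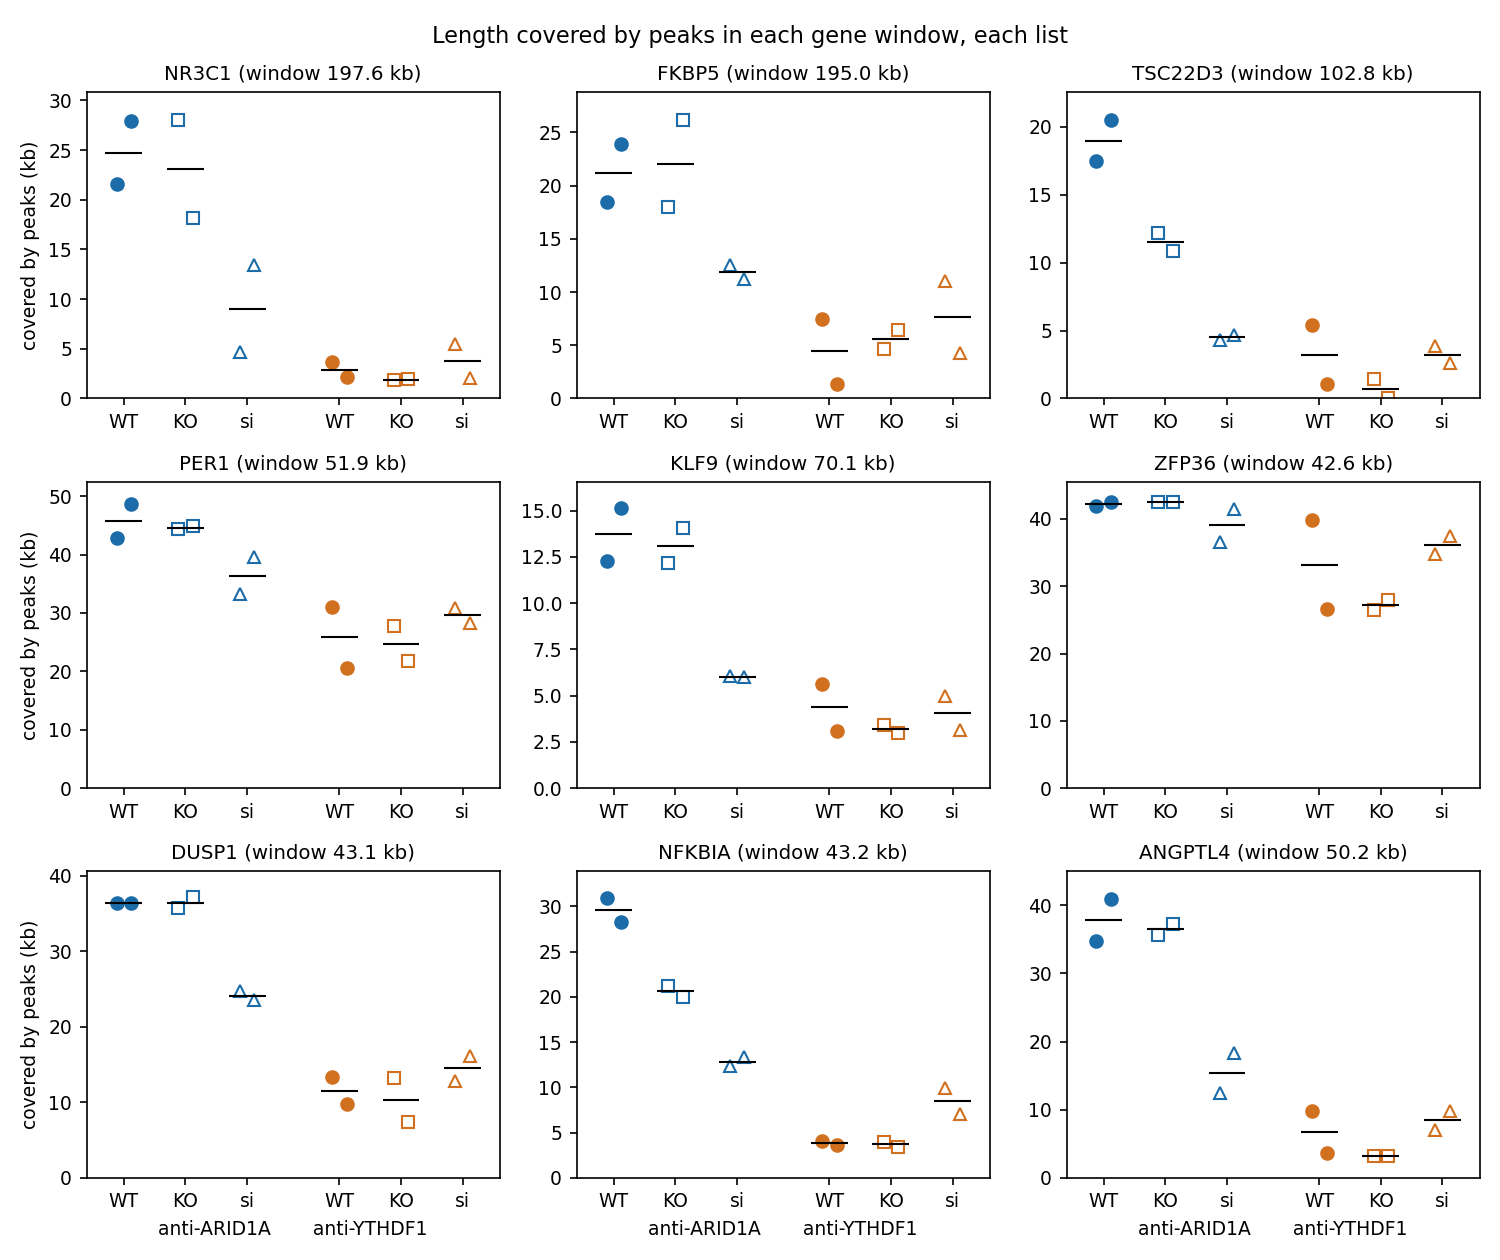
Each panel is a gene window, the y axis its length covered by peaks in kb from 0, and each point a list (filled circles WT, open squares YTHDF1-KO as KO, open triangles siARID1A as si; blue anti-ARID1A, orange anti-YTHDF1), with a bar at the mean of 2 replicates. With anti-ARID1A, ANGPTL4 lies at 34.8 and 41.0 kb in WT and at 12.4 and 18.4 kb in siARID1A, and ZFP36 lies between 36.6 and 42.6 kb over the 6 lists.

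NR3C1 encodes the receptor (5:143277931-143435512, minus strand, window 197.6 kb, which also overlaps LOC128966704). The gene has an outer group of starts and an inner group about 30 kb into the gene body. With anti-ARID1A its window held 21.6 and 27.9 kb of peaks in WT, 28.1 and 18.2 kb in YTHDF1-KO and 4.65 and 13.4 kb in siARID1A. With anti-YTHDF1 it held 3.65 and 2.12 kb in WT, 1.83 and 1.95 kb in YTHDF1-KO, and 5.504 and 2.02 kb in siARID1A. Replicate 1 of siARID1A lay below every other anti-ARID1A list and inside the anti-YTHDF1 range, so the 2 antibodies overlapped at this gene. The log2 difference between them was 2.44 (SE 0.34, limma adjusted p = 3.2427e-05). The inner starts had a peak in 6 of 6 anti-ARID1A lists, always the strongest of the window, at percentiles 91.0 to 96.9 of all peaks in their lists and 2.70 to 6.29 kb wide. Anti-YTHDF1 gave a peak there in 4 of 6 lists, at percentiles 24.7 to 88.0 and 0.822 to 2.47 kb wide. The outer starts had a peak in 1 anti-ARID1A list and in 0 anti-YTHDF1 lists. Replicates of anti-YTHDF1 shared 0% of their peak length in this window in WT and 0% in YTHDF1-KO.

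Across the 12 centred libraries, the genes whose covered length most resembled that of NR3C1 were BICD1 (Pearson r 0.94), LOC124900940 (0.94) and DCPH1 (0.92). These libraries share antibody and list size, so r is a description only. Among the targets r ran from 0.56 for ANGPTL4 and 0.46 for TSC22D3 to -0.72 for PER1 and -0.75 for ZFP36. Of all windows, 93.9% had a lower r than ANGPTL4, 88.9% than TSC22D3, 6.76% than PER1 and 4.69% than ZFP36. Anti-ARID1A peaks covered 63.9% to 93.6% of the PER1 window and 86.0% to 100% of the ZFP36 window. The part of such nearly full windows in r was not tested.

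FKBP5 encodes a co-chaperone that lowers the receptor's affinity for hormone and so closes a feedback loop (6:35573590-35728583, minus strand, window 195.0 kb, which also holds part of ARMC12). With anti-ARID1A it held 18.5 and 23.9 kb in WT, 17.9 and 26.2 kb in YTHDF1-KO and 12.6 and 11.2 kb in siARID1A. Anti-YTHDF1 peaks covered 7.45 and 1.40 kb in WT, 4.66 and 6.47 kb in YTHDF1-KO, and 11.05 and 4.26 kb in siARID1A. All 6 anti-ARID1A lists lay above all 6 anti-YTHDF1 lists, the lowest of the first at 11.2 kb and the highest of the second at 11.05 kb (log2 difference 1.70, SE 0.35, limma adjusted p = 0.00056). The outer start had a peak at percentiles 92.2 to 97.7 in 6 of 6 anti-ARID1A lists and at 35.4 to 74.1 in 4 of 6 anti-YTHDF1 lists. A stretch of 276 bp upstream of the gene, -3.39 to -3.11 kb from the start (6:35731696-35731971) was inside a peak of all 12 lists. No annotated start lies within 1 kb of it.

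TSC22D3 encodes GILZ, a leucine zipper protein known to mediate anti-inflammatory effects of glucocorticoids (X:107713221-107775988, minus strand, window 102.8 kb, which also overlaps NCBP2L). Anti-ARID1A peaks covered 17.5 and 20.5 kb in WT, 12.2 and 10.9 kb in YTHDF1-KO and 4.32 and 4.68 kb in siARID1A. With anti-YTHDF1 it held 5.41 and 1.046 kb in WT, 1.40 and 0 kb in YTHDF1-KO, and 3.83 and 2.59 kb in siARID1A. The 3 anti-ARID1A conditions did not overlap one another here, WT lying highest and siARID1A lowest, and siARID1A reached down into the WT anti-YTHDF1 range. The antibody difference was 2.25 on the log2 scale (SE 0.41, limma adjusted p = 0.00024). Its inner starts, near the 3′ end of the longest form, carried an anti-ARID1A peak in 6 of 6 lists, at percentiles 53.1 to 85.5. Those peaks were 2.75 to 5.45 kb wide in WT and YTHDF1-KO cells and 0.945 and 1.54 kb wide in siARID1A cells. The stretch of 870 bp held by 6 anti-ARID1A lists and 0 anti-YTHDF1 lists (X:107716637-107717506) contains the sequence printed above. Such a stretch, of any length, was found in 8 of the 9 windows, all but NR3C1, and in 44.6% of all windows.

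PER1 encodes a repressor of the circadian clock (17:8140472-8152404, minus strand, window 51.9 kb, which also holds HES7 and VAMP2). With anti-ARID1A it held 42.8 and 48.6 kb in WT, 44.3 and 45.0 kb in YTHDF1-KO and 33.2 and 39.6 kb in siARID1A. Anti-YTHDF1 peaks covered 31.0 and 20.6 kb in WT, 27.8 and 21.7 kb in YTHDF1-KO, and 30.9 and 28.3 kb in siARID1A. The groups of 6 did not overlap (log2 difference 0.66, SE 0.15, limma adjusted p = 0.0011), but over the gene body alone the difference was 0.19 (adjusted p = 0.26). The peak at its start stood at percentiles 99.6 to 99.8 with anti-ARID1A and 92.1 to 99.9 with anti-YTHDF1. That peak was 8.19 to 27.5 kb wide with the first antibody and 1.62 to 16.8 kb wide with the second. In all, 10 stretches summing to 10.8 kb were held by all 12 lists.

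KLF9 encodes a zinc finger repressor and early target of the receptor (9:70384604-70414657, minus strand, window 70.1 kb with no other protein-coding gene). Anti-ARID1A peaks covered 12.3 and 15.2 kb in WT, 12.2 and 14.0 kb in YTHDF1-KO and 6.05 and 6.001 kb in siARID1A. With anti-YTHDF1 it held 5.64 and 3.08 kb in WT, 3.39 and 2.98 kb in YTHDF1-KO, and 4.97 and 3.16 kb in siARID1A. The groups of 6 did not overlap, and the log2 difference was 1.34 (SE 0.28, limma adjusted p = 0.00059). In all 12 lists the strongest peak of the window lay upstream of the gene, with its summit at -5.39 to -4.19 kb from the start. It stood at percentiles 98.5 to 99.3 with anti-ARID1A and 96.5 to 98.2 with anti-YTHDF1. The stretch common to all 12 lists was 2410 bp long (9:70418452-70420861, -6.20 to -3.80 kb from the start) and has no annotated start within 1 kb. The widths of the peak at the KLF9 start and of the upstream peak are given as a description with no test. With anti-ARID1A the start peak was 4.27 and 4.64 kb wide in WT and 0.951 and 0.661 kb wide in siARID1A. In siARID1A a separate peak lay beside it, inside the span of the WT start peaks. It ran from 1.306 to 2.375 kb in replicate 1 and from 1.161 to 1.904 kb in replicate 2. The upstream peak was 4.49 and 4.69 kb wide in WT and 3.43 and 4.596 kb wide in siARID1A. With anti-YTHDF1 the start had a peak in 3 of 6 lists, and both replicates shared 54.6% to 66.0% of their peak length in the window in each condition, against 16.4% to 22.9% over the genome.

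**Figure D3:**
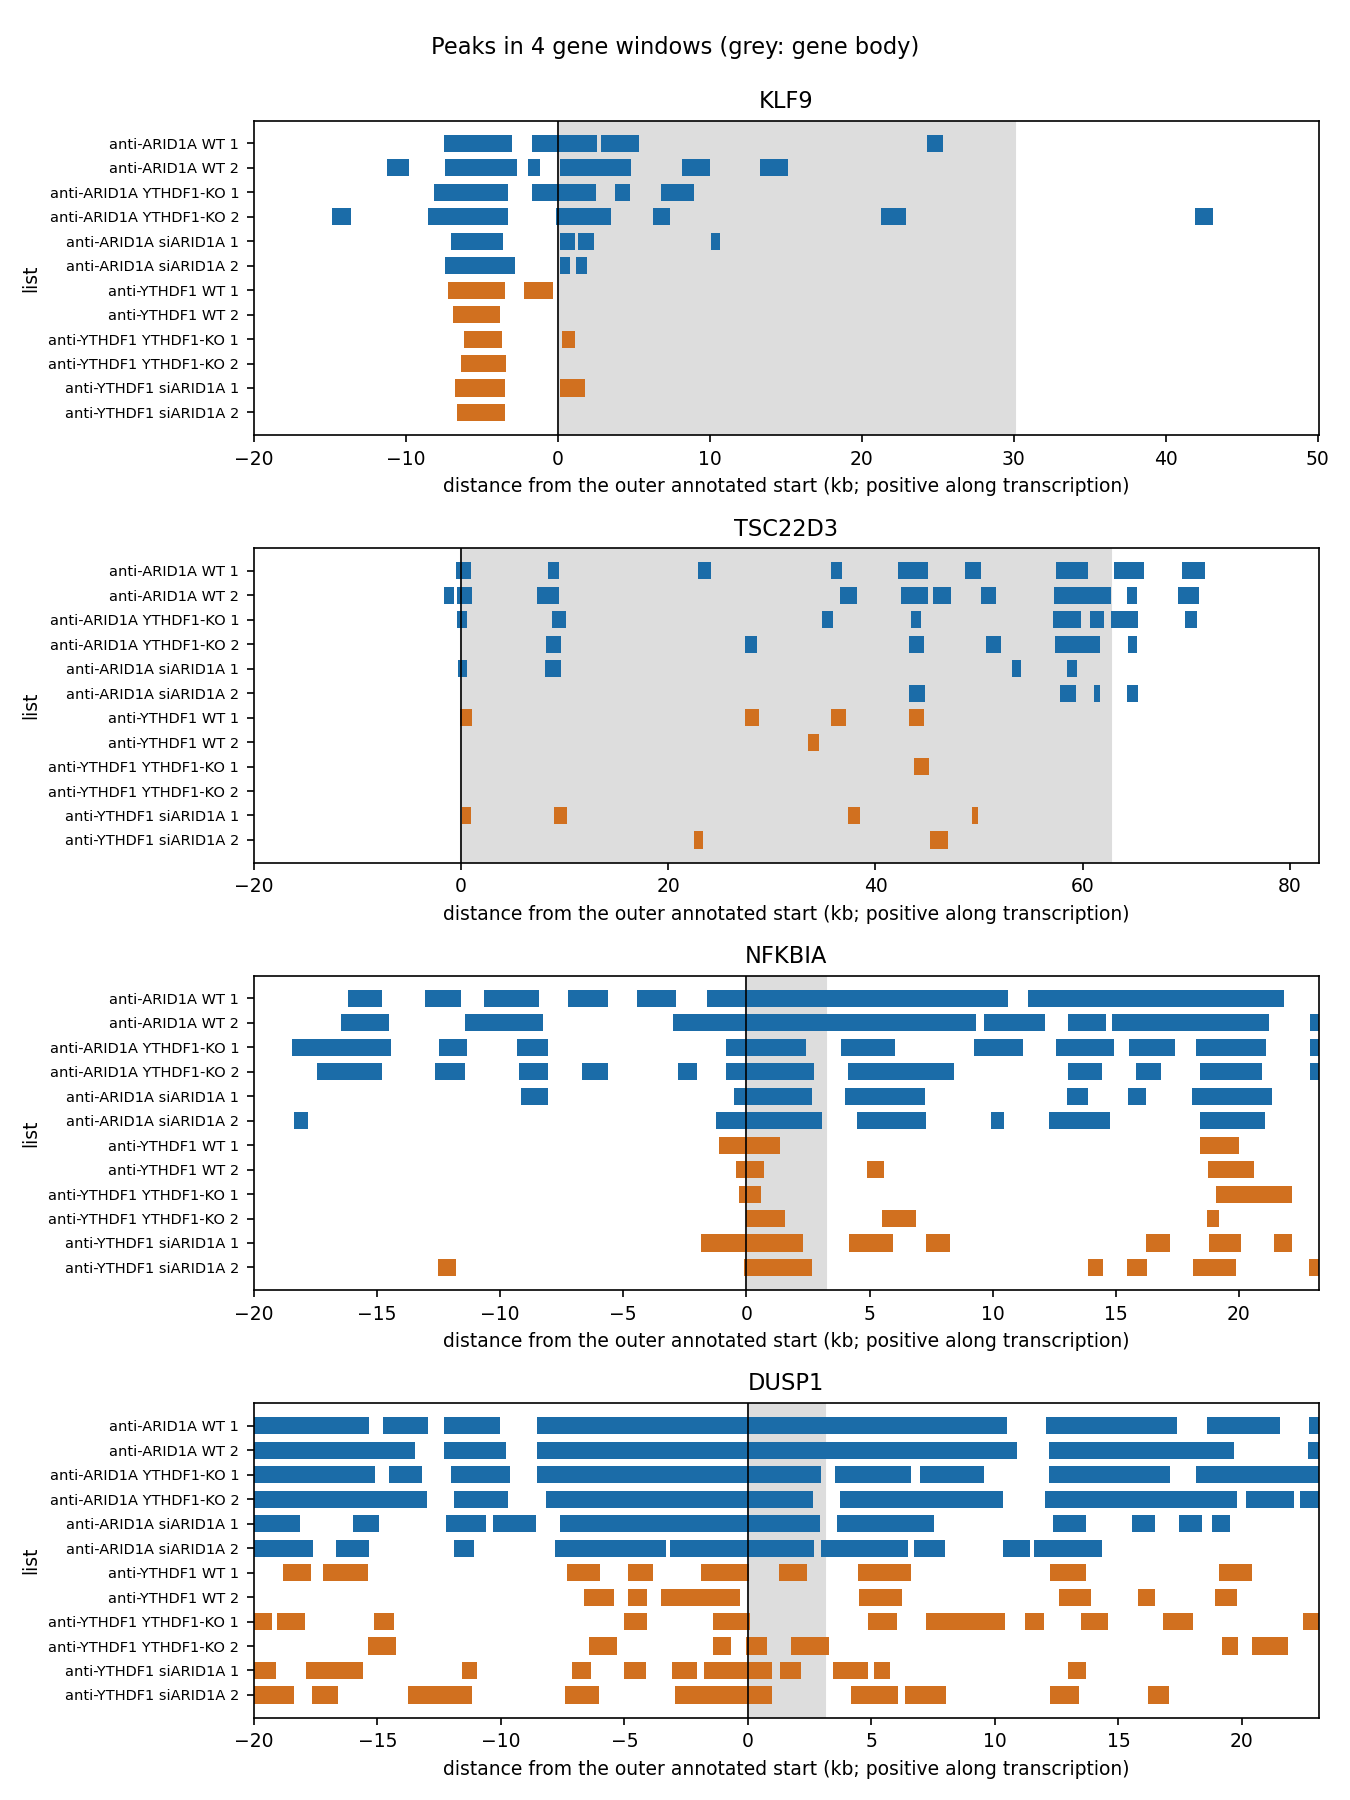
Peaks in the windows of KLF9, TSC22D3, NFKBIA and DUSP1, each row a list (blue anti-ARID1A, orange anti-YTHDF1), with distance in kb from the outer start along the x axis and the gene body in grey. The upstream KLF9 peak is present in all 12 rows, the TSC22D3 rows of anti-YTHDF1 hold 0 to 4 scattered peaks, and the start peaks of NFKBIA and DUSP1 are widest in the WT anti-ARID1A rows.

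ZFP36 encodes tristetraprolin, which binds AU-rich elements of cytokine mRNAs and promotes their decay (19:39406847-39409407, plus strand, window 42.6 kb with SAMD4B, PAF1, MED29 and PLEKHG2). With anti-ARID1A it held 41.9 and 42.6 kb in WT, 42.6 and 42.6 kb in YTHDF1-KO and 36.6 and 41.5 kb in siARID1A. Anti-YTHDF1 peaks covered 39.8 and 26.6 kb in WT, 26.5 and 27.9 kb in YTHDF1-KO, and 34.8 and 37.4 kb in siARID1A. The 2 antibodies overlapped here, and this was the smallest antibody difference of the 9 genes (0.37, SE 0.14, limma adjusted p = 0.021). It missed the threshold within 5 kb of the gene (0.12, adjusted p = 0.51), over the gene body (0.13, adjusted p = 0.60), and when any 1 of 5 libraries was left out (adjusted p 0.050 to 0.057; WT anti-ARID1A replicate 2, either YTHDF1-KO anti-ARID1A replicate, siARID1A anti-ARID1A replicate 2 or siARID1A anti-YTHDF1 replicate 1). The peak over its start was among the strongest of the whole genome. By total signal it ranked 3rd to 13th in the anti-ARID1A lists, and it was 50.1 to 77.2 kb wide in WT and YTHDF1-KO and 19.6 and 30.2 kb wide in siARID1A. The strongest anti-YTHDF1 peak of the window ranked 25th to 117th and was 7.60 to 21.7 kb wide. These broad peaks also lie over neighbouring genes, so they are not the signal of ZFP36 alone.

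DUSP1 encodes a phosphatase that inactivates MAP kinases (5:172768096-172771195, minus strand, window 43.1 kb). Anti-ARID1A peaks covered 36.5 and 36.4 kb in WT, 35.7 and 37.2 kb in YTHDF1-KO and 24.7 and 23.6 kb in siARID1A. With anti-YTHDF1 it held 13.4 and 9.76 kb in WT, 13.2 and 7.45 kb in YTHDF1-KO, and 12.8 and 16.2 kb in siARID1A. The groups of 6 did not overlap (log2 difference 1.39, SE 0.19, limma adjusted p = 3.1617e-05). Its start peak with anti-ARID1A was 19.1 and 19.4 kb wide in WT, 11.5 and 10.8 kb in YTHDF1-KO, and 10.5 and 5.86 kb in siARID1A. The summit of that peak lay at -6.40 kb from the start in the 4 WT and YTHDF1-KO lists and at -1.06 kb in both siARID1A lists. In siARID1A replicate 2 the start peak reached only to -3.165 kb. A separate peak of that list, from -7.82 to -3.33 kb, covered the place of the other summit. A stretch of 712 bp, -1.40 to -0.685 kb from the start (5:172771880-172772591), was held by all 12 lists. With anti-YTHDF1 the start peak stood at percentiles 35.7 to 96.7.

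NFKBIA encodes the inhibitor that retains NF-κB in the cytoplasm (14:35401513-35404749, minus strand, window 43.2 kb). With anti-ARID1A it held 30.9 and 28.3 kb in WT, 21.2 and 19.97 kb in YTHDF1-KO and 12.3 and 13.3 kb in siARID1A. Anti-YTHDF1 peaks covered 4.07 and 3.68 kb in WT, 3.98 and 3.46 kb in YTHDF1-KO, and 9.90 and 7.04 kb in siARID1A. As at TSC22D3, the 3 anti-ARID1A conditions did not overlap one another, and with anti-YTHDF1 the siARID1A lists lay above the other 4. The antibody difference was 1.898 (SE 0.22, limma adjusted p = 1.0498e-05). The start peak was 12.2 and 12.3 kb wide in WT with anti-ARID1A, 3.25 and 3.56 kb in YTHDF1-KO, and 3.19 and 4.29 kb in siARID1A. It stood at percentiles 94.2 to 98.0 of the 6 lists. A stretch of 617 bp at the start (14:35404142-35404758) was held by all 12 lists, and another of 112 bp lay 19.1 to 19.2 kb from the start, beyond the end of the gene.

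ANGPTL4 encodes a secreted inhibitor of lipoprotein lipase (19:8364155-8374370, plus strand, window 50.2 kb, which also holds part of RAB11B). Anti-ARID1A peaks covered 34.8 and 41.0 kb in WT, 35.7 and 37.3 kb in YTHDF1-KO and 12.4 and 18.4 kb in siARID1A. With anti-YTHDF1 it held 9.80 and 3.68 kb in WT, 3.22 and 3.21 kb in YTHDF1-KO, and 7.09 and 9.84 kb in siARID1A. The groups of 6 did not overlap (log2 difference 2.23, SE 0.25, limma adjusted p = 8.6565e-06). Its start had a peak at percentiles 88.2 to 99.3 in 6 of 6 anti-ARID1A lists and at 43.7 to 91.6 in 5 of 6 anti-YTHDF1 lists. The strongest anti-YTHDF1 peak of the window was not at ANGPTL4 in any of the 6 lists: its summit lay 26.1 to 26.5 kb downstream of the start, by the start of RAB11B. The strongest anti-ARID1A peak lay there too in 4 of 6 lists (WT replicate 2, YTHDF1-KO replicate 1 and both of siARID1A). The only stretch held by all 12 lists was at that place (19:8389968-8390887, 920 bp).

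Counted over the 6 lists of each antibody, 6 of the 9 windows did not overlap between antibodies, all higher with anti-ARID1A, against 29.7% of all windows. The exceptions were NR3C1, TSC22D3 and ZFP36. Within WT cells 9 of 9 did not overlap (88.5% of all windows), within YTHDF1-KO cells 9 of 9 (90.2%) and within siARID1A cells 7 of 9 (46.5%), where NR3C1 and ZFP36 overlapped. A stretch held by all 12 lists was in 7 of the 9 windows, all but NR3C1 and TSC22D3, and in 25.4% of all windows. A stretch in 6 of 6 anti-YTHDF1 lists and 0 of 6 anti-ARID1A lists was in 0 of 9 windows and in 0.0401% of all. For a peak at any start, Fisher's exact test over lists passed for 0 of 9 members and for 0.0% of 19970 genes after adjustment, and at an unadjusted p under 0.05 for 0 of 9 and 1806 genes. The lowest among the members was TSC22D3, with 6 of 6 against 2 of 6 lists (Fisher's exact test, two-sided p = 0.061, adjusted p = 0.35).

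Per length, the genes fell in a similar order with both antibodies. With anti-ARID1A the median share of the window covered was 99.2% for ZFP36, 83.8% for PER1, 83.6% for DUSP1, 70.1% for ANGPTL4, 47.6% for NFKBIA, 17.5% for KLF9, 11.2% for TSC22D3, 10.1% for NR3C1 and 9.33% for FKBP5. Only between NFKBIA (28.5% to 71.4%) and KLF9 (8.57% to 21.6%) did neighbours in that order not overlap over the 6 lists. With anti-YTHDF1 the medians ran from 73.7% for ZFP36, 54.0% for PER1 and 30.2% for DUSP1 down to 1.94% for TSC22D3 and 1.047% for NR3C1. Ranked among all 19970 windows of the same list, ZFP36 stood at percentile 99.7 or above in the 12 lists and PER1 at 95.8 to 99.3. DUSP1 stood at 86.8 to 96.9, while NR3C1 stood at 30.9 to 53.4, and FKBP5 at 35.4 to 62.4. The windows of short genes are mostly flanking DNA and those of NR3C1, FKBP5 and TSC22D3 mostly gene body.

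Knockdown of ARID1A asks what happens to the peaks of the antibody against the protein itself. With anti-ARID1A, all 9 members had less covered length in siARID1A than in WT cells, and both siARID1A lists lay below both WT lists for 9 of 9 genes, as they did for 80.6% of all windows. The ratio of means was lowest for TSC22D3 (0.237), NR3C1 (0.366), ANGPTL4 (0.407), NFKBIA (0.434) and KLF9 (0.439), and highest for PER1 (0.797) and ZFP36 (0.925). The median over all windows was 0.483 and the ratio of total covered length 0.458. By limma 0 of 9 members passed after adjustment, where 8.86% of all windows passed as lower and 0.0113% as higher. At an unadjusted p under 0.05, 5 of 9 members passed, against 37.5% of all windows. The log2 differences ran from -1.96 at TSC22D3 (SE 0.72, adjusted p = 0.080) and -1.17 at NFKBIA (SE 0.39, adjusted p = 0.063) to -0.11 at ZFP36 (SE 0.24, adjusted p = 0.71). The members' median was -1.12 and that of all windows -0.98. Leaving out either WT anti-YTHDF1 replicate left the members' differences as they were but changed the calls of some members. Those lists enter this comparison only through the shared estimate of the spread. Centred on the median window of each library, only TSC22D3 (-0.75), NR3C1 (-0.36) and ANGPTL4 (-0.08) kept a negative value, and the members' median was 0.09 against 0.22 over all windows. DUSP1 (0.62), FKBP5 (0.41), KLF9 (0.09) and NFKBIA (0.03) turned positive without passing. On that scale PER1 (0.88, adjusted p = 0.0064) and ZFP36 (1.09, adjusted p = 0.0025) passed as higher, with 4.68% of all windows. In WT, peaks covered 82.3% and 93.6% of the PER1 window, 84.6% and 84.4% of the DUSP1 window, and at least 98.3% of the ZFP36 window. In siARID1A they covered 63.9% and 76.2% at PER1 and 57.3% and 54.7% at DUSP1. Whether a nearly full window plays a part at PER1 was not tested. At ZFP36, a peak that narrows beyond the window's edges leaves the covered length as it was. The ZFP36 peak was 50.1 and 64.1 kb wide in WT and 19.6 and 30.2 kb wide in siARID1A, so its centred value is no measure of a rise. The mitochondrial share was also highest in these lists (44.9% to 49.5% against 18.1% to 19.3% in WT), and its part in the result was not tested.

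With anti-ARID1A, both YTHDF1-KO lists lay within the range of the 2 WT lists for PER1, ZFP36 and ANGPTL4, 3 of the 9 genes. For NR3C1, FKBP5 and DUSP1 1 knockout list lay above and 1 below that range. By limma 0 of 9 passed, and 0.0% of all windows passed in either direction. At an unadjusted p under 0.05, 0 of 9 passed, against 2.77% of all windows. The 2 groups did not overlap for TSC22D3 (ratio of means 0.608) and NFKBIA (0.697), both lower in YTHDF1-KO, 2 of 9 where 22.8% of all windows did so. The log2 difference was -0.69 at TSC22D3 (95% interval -2.22 to 0.84) and -0.51 at NFKBIA (-1.33 to 0.31). At DUSP1 it was 0.00 (-0.71 to 0.71), although the start peak was narrower in both knockout lists. Separate peaks there began at 3.54 kb from the start in replicate 1 and 3.72 kb in replicate 2, inside the span of the WT start peaks.

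The same knockout was also profiled with the YTHDF1 antibody. Both knockout lists held peaks in every member window but that of TSC22D3, which had 1 peak in replicate 1 and 0 in replicate 2. Of these 97 peaks, 77 (79.4%) overlapped a peak of either WT list by at least 1 bp, against 51.0% and 54.5% of all peaks of the 2 knockout lists. Many of the 97 lay at PER1 (14 of 17 and 8 of 8 overlapping) and ZFP36 (12 of 12 in each list). WT anti-YTHDF1 peaks covered 59.7% and 39.7% of the PER1 window and 93.5% and 62.4% of the ZFP36 window, so overlap by 1 bp is easily met there. All peaks overlapped at NFKBIA and ANGPTL4. At FKBP5 2 of 4 peaks did so in replicate 1 and 2 of 6 in replicate 2, and at NR3C1 0 of 2 and 1 of 2. Those that did included the upstream KLF9 peak, 2.53 and 2.98 kb wide in YTHDF1-KO against 3.71 and 3.08 kb in WT, and the start peaks of PER1, ZFP36, DUSP1 and NFKBIA. By limma 0 of 9 members passed, where 0.0735% of all windows passed as lower and 0.0113% as higher. At an unadjusted p under 0.05, 1 of 9 passed, near the 12.8% of all windows. That 1 was TSC22D3 (log2 difference -1.63, unadjusted p = 0.038, adjusted p = 0.35). Covered length did not overlap for NR3C1 (ratio of means 0.656) and ANGPTL4 (0.478), both lower in YTHDF1-KO, against 18.6% of all windows. Without WT anti-YTHDF1 replicate 2, the shortest list, the log2 difference was -2.60 at TSC22D3 and -1.47 at ANGPTL4. Over all single libraries left out, it reached up to -0.67 and -0.17 at these genes.

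With the YTHDF1 antibody in siARID1A cells, 0 of 9 members passed by limma, and 0.0% of all windows. At an unadjusted p under 0.05, 1 of 9 passed, against 10.1% of all windows. NFKBIA was the only member whose groups did not overlap: 7.04 and 9.90 kb in siARID1A against 3.68 and 4.07 kb in WT, a ratio of 2.18, where 19.7% of all windows lay higher in this way. Its log2 difference was 1.02 (95% interval 0.19 to 1.84, adjusted p = 0.39). The start peak of NFKBIA was 4.15 and 2.75 kb wide in siARID1A and 2.49 and 1.12 kb in WT. At FKBP5 the log2 difference ran from -0.10 to 1.97 when single libraries were left out, and was highest without WT anti-YTHDF1 replicate 1. The comparisons with WT share the same 2 WT lists per antibody, so they are not independent of one another.

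**Figure D4:**
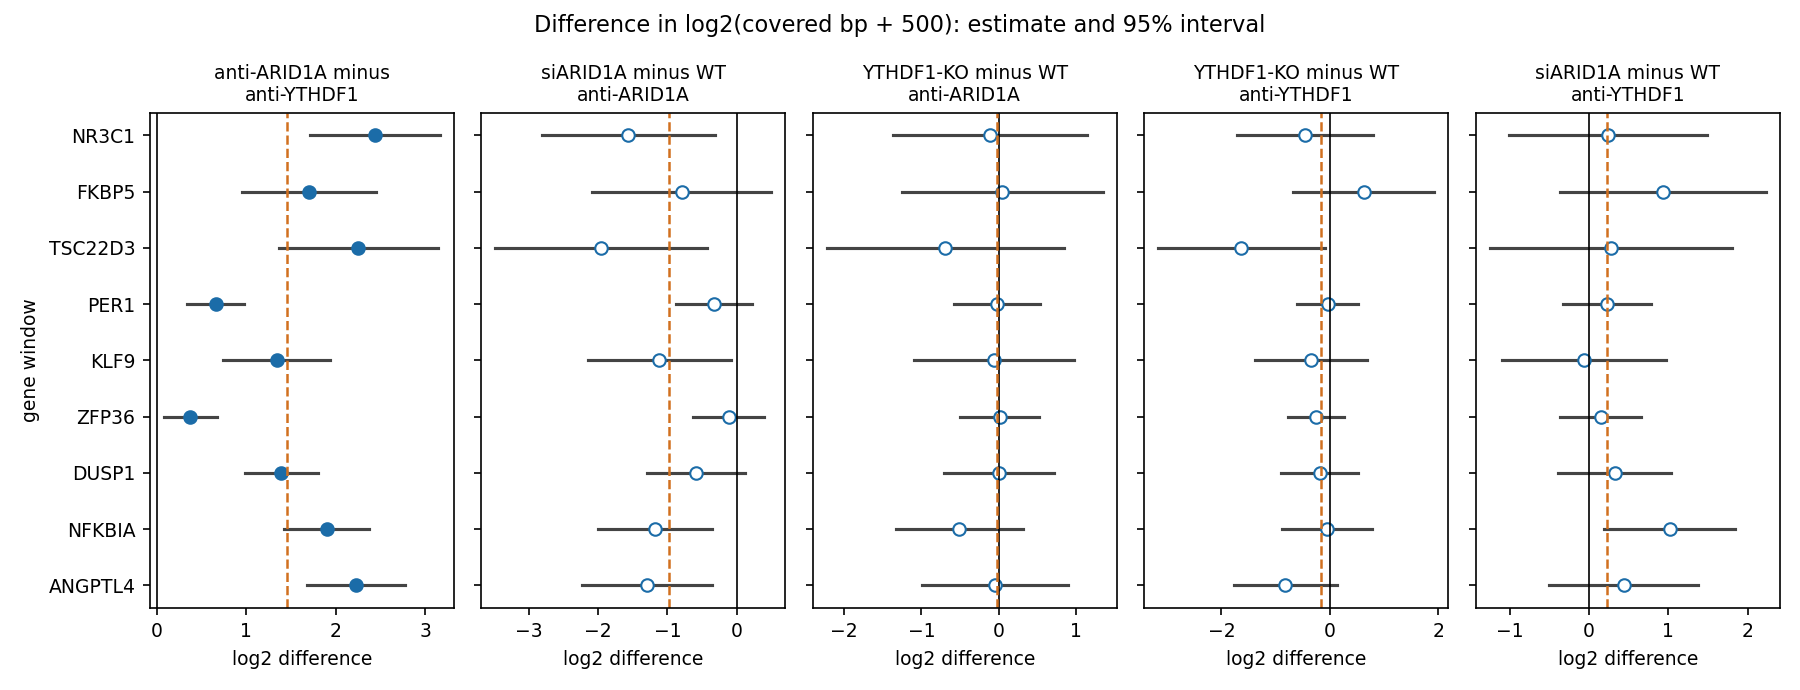
Log2 difference in covered length for each gene in 5 comparisons, with 95% intervals from limma; filled points passed the adjusted threshold, the solid line is 0 and the dashed orange line the median of all 17679 windows. All 9 points are filled and above 0 in the antibody comparison, and none is filled in the 4 comparisons with WT.

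Whether the knockdown acted differently on the 2 antibodies was tested as an interaction. The siARID1A difference was more negative with anti-ARID1A for 9 of 9 members, as for 91.8% of all windows, and after centring for 5 of 9 against 39.5%. By limma 0 of 9 passed, where 0.905% of all windows passed as lower. At an unadjusted p under 0.05, 4 of 9 passed, against 32.0% of all windows. NFKBIA came closest (-2.19, SE 0.55, adjusted p = 0.060). Without WT anti-YTHDF1 replicate 1, the interaction was -2.255 at NFKBIA, -3.20 at TSC22D3, -2.76 at FKBP5, -2.37 at ANGPTL4, -1.13 at DUSP1 and -0.84 at PER1. On the centred scale ZFP36 passed as higher (1.19, adjusted p = 0.032), with 0.413% of all windows, under the same limit of a nearly full window. For the YTHDF1 knockout 0 of 9 passed, with 0.0% of all windows. At an unadjusted p under 0.05, 0 of 9 passed, against 4.59%.

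A wider list of 20 receptor chaperones, coregulators and steroid-converting enzymes gave 20 of 20 genes higher with anti-ARID1A by limma, where 85.3% of all windows were, with a median log2 difference of 1.54. After centring 3 were higher and 4 lower, where 7.87% of all windows were higher and 22.0% lower, with a median of -0.07 against -0.16 over all windows. Uncentred, the largest differences were at the corepressor NCOR1 (2.80, SE 0.37), the coactivator NCOA3 (2.79, SE 0.27) and H6PD (2.65, SE 0.48), which supplies NADPH for cortisol regeneration. The mineralocorticoid receptor NR3C2 followed (2.16, SE 0.47). NR3C2 held at most 3.91 kb with anti-ARID1A and 0 kb in 5 of 6 anti-YTHDF1 lists, so the size of its difference depends on the 500 bp added before the log. In siARID1A cells 2 of the 20 passed as lower with anti-ARID1A, near the 8.86% of all windows. After centring 0 passed as lower and 1 as higher, beside 4.68% of all windows higher. Of the 2 that passed as lower uncentred, PTGES3, the p23 co-chaperone, held 25.6 and 27.4 kb in WT and 8.43 and 6.55 kb in siARID1A (-1.77, SE 0.44, limma adjusted p = 0.033).

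Of 30 other genes known to be induced by glucocorticoids, 27 were higher with anti-ARID1A by limma, beside 85.3% of all windows, and 3 did not pass (GLUL at -0.20, TAT at 0.70 and ZBTB16 at 0.84). After centring 8 of the 30 were higher and 1 lower, where 7.87% of all windows were higher and 22.0% lower. Uncentred, the largest differences were at ANXA1 (3.92, SE 0.44), an inhibitor of inflammation, ERRFI1 (3.25, SE 0.46), EDN1 (3.25, SE 0.42) and PHLDA1 (3.16, SE 0.47). Each of these 4 had 0 kb in 2 of 6 anti-YTHDF1 lists, so these sizes too depend on the 500 bp. The list's uncentred median was 2.06, against 1.45 over all windows. In siARID1A cells 2 of the 30 passed as lower with anti-ARID1A, again beside 8.86% of all windows, and 0 did after centring. CRISPLD2, a secreted protein, held 46.6 and 51.6 kb in WT and 10.4 and 12.1 kb in siARID1A (-2.08, SE 0.33, adjusted p = 0.012). PCK1, an enzyme of gluconeogenesis, held 13.7 and 9.48 kb in WT and 2.12 and 0.938 kb in siARID1A (-2.62, SE 0.65, adjusted p = 0.033). In the other 3 comparisons with WT and in both interactions 0 genes of either list passed by limma. At an unadjusted p under 0.05, siARID1A against WT with anti-ARID1A gave 10 of 20 and 6 of 30 (37.5% of all windows). YTHDF1-KO against WT with anti-ARID1A gave 0 of 20 and 0 of 30 (2.77%). With anti-YTHDF1, YTHDF1-KO gave 7 of 20 and 4 of 30 (12.8%), and siARID1A gave 3 of 20 and 5 of 30 (10.1%). The siARID1A interaction gave 7 of 20 and 7 of 30 (32.0%), and the YTHDF1-KO interaction 3 of 20 and 1 of 30 (4.59%).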

How the data were processed

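CUT&Tag peak lists of 12 samples (6 groups of 2) were used. The submitters' processing notes name SEACR 1.3 (a peak caller for sparse background), Bowtie2 2.4.2 (an aligner), deepTools 3.5.2, bedtools 2.30.0, SAMtools 1.9 and the read trimmer fastp 0.23.2, with the builds GRCh38 and hg38. The deposited lists were made per sample and give each peak's total and highest signal, as coverage on the authors' own scale. Not given in the sources used here are the settings and how IgG entered. Signal was used only to rank peaks within a list, and percentiles of lists of different length show no change. A listed peak can span several genes. IgG samples (6) were not analysed here, and no sample label names both perturbations.

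Gene positions and starts came from RefSeq (GRCh38.p14), which gives no exons here. Of the 19970 genes, 4159 had no listed start, and for these a peak within 1 kb of either end of the gene counted. The shares of all genes with a start peak and the Fisher counts over all genes therefore include peaks at 3′ ends. Covered length per window was compared with limma 3.58.1 (R 4.3.3) on log2(covered bp + 500), as group means with a trended shared spread, over the 17679 windows with a mean of at least 500 bp, and with Benjamini-Hochberg adjustment. An exact permutation test of 2 against 2 lists cannot go below p = 0.33 two-sided. Start peaks were compared with Fisher's exact test. A stretch held by a set of lists is DNA covered by a peak in each of them. Alternatives changed the window, the start distance, the pseudocount, the filter, the scaling, the overlap rule, the peaks kept and the libraries. The procedure was tested on simulated data. The 9 genes and both wider lists were chosen with earlier results of these data known. All 9 were named whatever their values, with at most 4 genes of each wider list per comparison (the largest differences past the threshold) and the 3 genes most like NR3C1. Python 3.11.15, pandas 2.3.3, numpy 2.4.6, scipy 1.17.1 and matplotlib 3.10.9 were used. The values of 1 gene of the wider lists are not reported here.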

Additional observations from a re-analysis of the deposited data

How the results depend on the processing

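Over 24 alternatives, 1456 of 1512 values for single members kept their side of the threshold. Centring each library on its median window gave 2 members higher and 2 lower between antibodies (PER1 -0.95, ZFP36 -1.24; KLF9 -0.27 and DUSP1 -0.22 also changed sign), against 9 and 0 uncentred. In siARID1A against WT with anti-ARID1A it gave 2 higher (PER1 0.88 and ZFP36 1.09, the latter in a nearly full window) and turned 4 other members positive. In the interaction it gave 1 higher (ZFP36 1.19). Cutting all lists to 40562 peaks and centring, chosen after seeing the data, gave 1 higher and 2 lower between antibodies (PER1 -0.54, ZFP36 -0.76; KLF9 -0.14) and 1 higher after knockdown with anti-ARID1A (ZFP36 0.93). For that knockdown comparison, members called lower numbered 2 with a 50 kb window, 4 with a pseudocount of 2000 bp and 1 with no filter, against 0, and for the interaction 1, 1 and 1. The shares of all windows called in these settings and with the cut lists are not given here, so these counts lack a background. Leaving out 1 library at a time gave 8 to 9 members higher between antibodies. It gave 0 to 5 lower in siARID1A against WT with anti-ARID1A, and 0 to 2 lower in YTHDF1-KO against WT with anti-YTHDF1. It gave 0 to 1 higher in siARID1A against WT with anti-YTHDF1, and 0 to 6 lower in the siARID1A interaction, the values above 0 coming without a WT anti-YTHDF1 replicate. A group left with 1 list is assumed to vary like the others. Apart from the construction of each setting, the cause was not tested. Same-numbered samples did not deviate together (r -0.034 to 0.030 over 15 pairs of groups), so the numbers do not pair the samples; with the replicate number as a block, 9 members were higher between antibodies and 0 were called in the other comparisons, as without it. With 2 lists a group and unknown depth, a missing peak cannot be read as absent binding.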
